A study of Homo sapiens with 10 samples.

Results

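RAB proteins are small GTPases that give each membrane compartment its identity. Bound to GTP on a membrane they recruit effectors that move, tether or fuse vesicles, and bound to GDP they are carried through the cytosol. Exchange factors switch them on, GTPase-activating proteins switch them off, and GDP dissociation inhibitors lift them off the membrane. In B-lineage cells this traffic carries surface receptors, internalised antigen and lysosomal proteins. The RAB genes were taken as the protein-coding rows whose symbol is RAB followed by a number and at most 1 letter and 1 further digit, which gave 61 of the 27142 genes listed.

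The cells were 697, a human pre-B acute leukaemia line, and both RNA groups used the parental line: 2 libraries of cells given TPA (a phorbol ester, known to activate protein kinase C) at 0.5 µg/ml and 2 control libraries. The labels give the length of treatment only as a range of 0 to 24 h and do not say whether controls received a vehicle. The 6 ChIP-seq and input libraries of the series were not analysed here. Every value is in RPKM, read number scaled to transcript length and library size, so levels of different genes can be set side by side. All 10 pre-B markers looked up were above 0 in all 4 libraries, and their summed level was 1196 and 1355 RPKM with TPA, against 2099 and 2091 RPKM in control. The 4 T-cell markers summed to at most 0.017 RPKM in any library and the 3 erythroid markers to at most 0.109 RPKM. The 5 myeloid markers summed to 3.15 and 3.89 RPKM with TPA, against 0.667 and 0.982 RPKM in control, most of it CSF1R, while MPO was at most 0.007 RPKM. The 3 natural killer markers summed to 7.37 and 6.62 RPKM with TPA, against 13.4 and 12.8 RPKM in control, all of it NKG7. The part of these markers in the RAB results was not tested. Relative to control replicate 1, the depth read from the steps of low values was 97.8% and 91.3% in the TPA libraries and 97.4% in control replicate 2. The absolute number of reads is unknown, so no counting interval is given. No label says that replicates were separate cultures, and p-values therefore rest on a spread between samples that may be technical alone. In bulk RNA, fewer cells of a kind and less RNA per cell cannot be told apart.

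RAB genes moved in both directions under TPA, and 10 of the 12 most abundant did not pass the test. Of the 61 genes, 41 had 1 RPKM or more in 2 or more libraries. These entered a limma fit of log2(RPKM + 1) over all genes, with calls at an adjusted p under 0.05 (Benjamini-Hochberg), and 12 rose (29.3% of those tested), 5 fell (12.2%) and 24 did not pass. The same rule called 28.4% of all genes tested as higher and 29.8% as lower, 58.2% in all, against 41.5% of the RAB genes. That difference in shares was not tested. On the log2(RPKM + 1) scale, a change of 2-fold or more was called for 3 that rose (RAB13, RAB30, RAB39B) and 2 that fell (RAB15, RAB26), against 11.7% and 11.5% of all genes tested. In RPKM itself, RAB38, RAB43 and RAB23 also changed 2-fold or more, which makes 5 that rose and 3 that fell. The share of all genes tested at that RPKM ratio was not taken, and the 11.7% and 11.5% do not apply to it. TPA and control libraries did not overlap for 28 of the 41 RAB genes (68.3%), against 79.8% of all genes tested. The count of RAB genes that fell was 3 without control replicate 2. The median log2 fold change was 0.04 over the RAB genes tested and -0.02 over all genes tested, and the median size of the change regardless of sign was 0.29 and 0.49. The RAB median changed sign with the libraries used: it was 0.15 without TPA replicate 1, -0.10 without TPA replicate 2, -0.10 without control replicate 1 and 0.15 without control replicate 2. RAB30 and RAB26 passed the filter on low values through 1 group alone, so they had to differ, and these counts describe the 41 genes tested and not the whole family.

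The windows of 250 bases that lie before the RefSeq start (build GRCh38) show the sequence upstream of 4 genes that rose: RAB13 and RAB30, which had the largest rises with a window in the table, and RAB5B and RAB24, the genes that rose whose windows hold one of the motifs searched. A window was found for 48 of the 61 RAB genes. The motifs were TGANTCA, the AP-1 site (N is any base), and CACGTG, 1 form of the E-box. Other forms of the E-box were neither searched nor marked, and E-box letters below means CACGTG alone. Each reads alike on both strands, and they do not overlap in the windows printed. Capitals mark the matches, at 210 bases before the start in RAB5B (chr12:55973699-55973948, plus strand) and 30 bases before it in RAB24 (chr5:177303720-177303969, minus strand). RAB13 (chr1:153986340-153986589, minus strand) and RAB30 (chr11:83071898-83072147, minus strand) hold neither set of letters.
RAB13: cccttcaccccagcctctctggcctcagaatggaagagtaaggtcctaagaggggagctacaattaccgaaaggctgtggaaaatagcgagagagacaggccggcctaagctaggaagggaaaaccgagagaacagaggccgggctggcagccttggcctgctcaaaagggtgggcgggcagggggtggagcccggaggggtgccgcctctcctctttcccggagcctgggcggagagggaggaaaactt
RAB30: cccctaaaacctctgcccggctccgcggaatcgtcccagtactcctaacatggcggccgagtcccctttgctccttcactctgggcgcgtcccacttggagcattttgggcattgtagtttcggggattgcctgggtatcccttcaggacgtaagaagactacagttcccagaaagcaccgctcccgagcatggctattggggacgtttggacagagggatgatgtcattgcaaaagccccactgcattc
RAB5B: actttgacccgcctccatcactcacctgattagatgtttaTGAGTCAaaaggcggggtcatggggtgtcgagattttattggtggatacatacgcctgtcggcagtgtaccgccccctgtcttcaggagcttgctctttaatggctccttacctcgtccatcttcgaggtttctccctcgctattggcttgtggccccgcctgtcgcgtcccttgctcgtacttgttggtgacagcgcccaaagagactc
RAB24: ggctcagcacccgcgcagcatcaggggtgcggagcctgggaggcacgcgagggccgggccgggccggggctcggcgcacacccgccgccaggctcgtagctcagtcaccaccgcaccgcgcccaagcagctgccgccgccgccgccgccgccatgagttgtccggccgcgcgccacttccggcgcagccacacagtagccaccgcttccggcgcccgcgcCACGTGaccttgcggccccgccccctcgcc
The AP-1 letters were in 1 of 9 windows of RAB genes that rose, 0 of 3 of those that fell and 0 of 20 of those that did not pass. The E-box letters were in 1 of 9, 0 of 3 and 2 of 20 of these windows. Among 27305 promoters of the same length, 6.60% held the AP-1 letters and 6.49% the E-box letters. A match describes letters only and shows no binding.

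**Figure D1:**
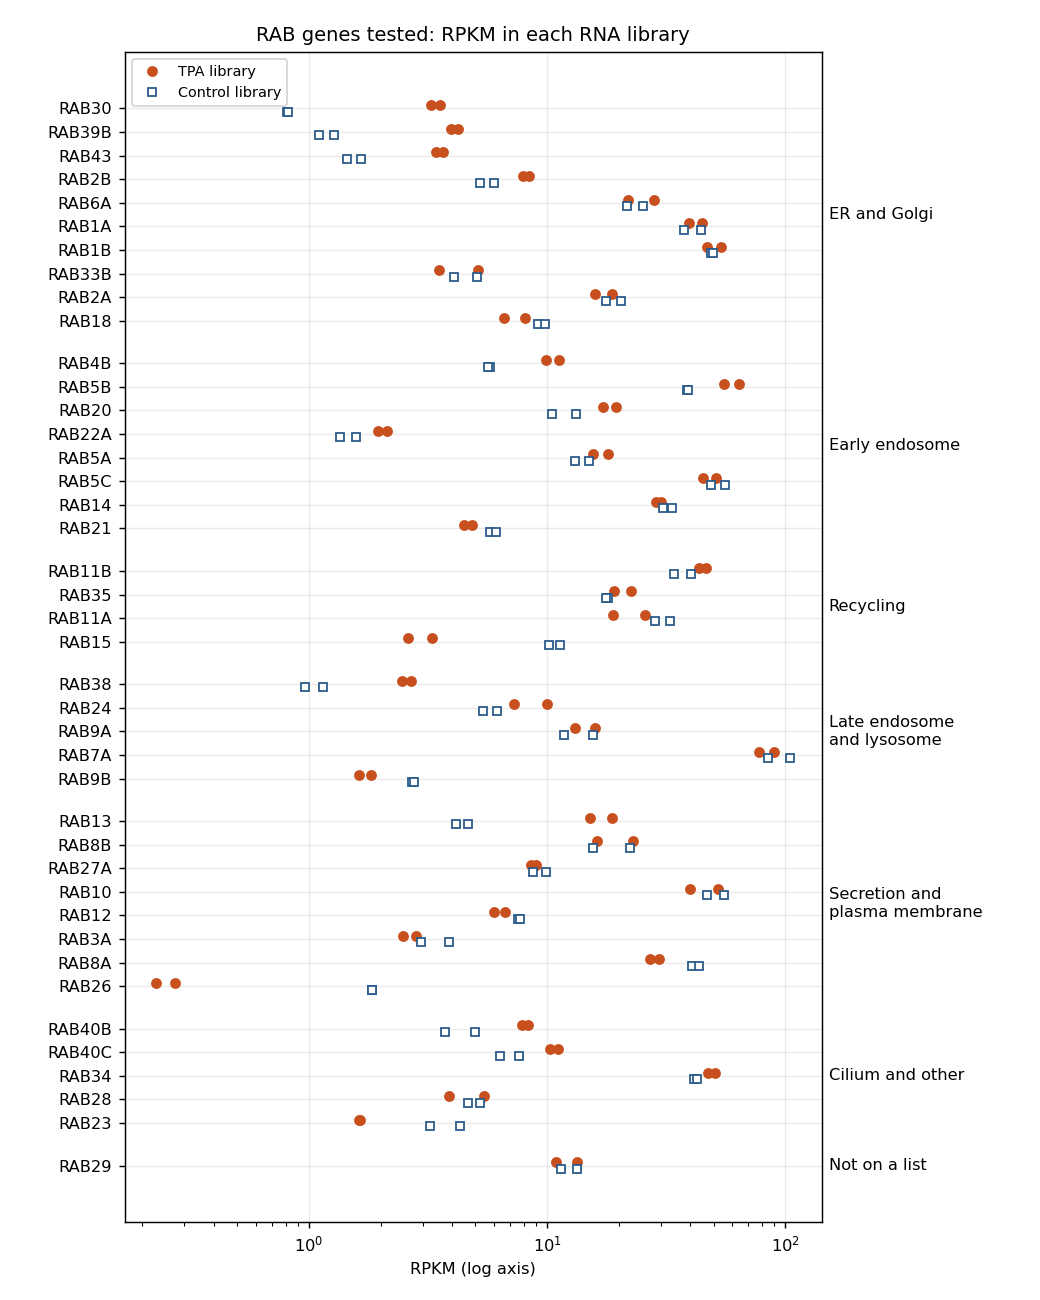
RPKM of the 41 RAB genes tested (horizontal log axis) in each TPA library (filled circles) and each control library (open squares), grouped by the transport step their products are best known for. RAB7A is farthest right at 78.0 to 105 RPKM, and the groups are well apart for RAB13, RAB15, RAB26, RAB30 and RAB39B. RAB26 and RAB30 passed the filter on low values through 1 group alone, so they had to differ.

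Among RAB genes of traffic between the endoplasmic reticulum and the Golgi, several low genes rose and the most abundant did not pass. Of 16 on this list 10 were tested, of which 4 rose and 6 did not pass. By limma's adjusted p 0 fell, and 1 was lower at an unadjusted p under 0.05. Over all genes tested 28.4% rose and 29.8% fell by adjusted p. RAB1A and RAB1B, which act in transport to and through the Golgi, differed by less than their spread. RAB1B (11q13.2) had 46.8 and 53.7 RPKM with TPA, against 48.9 and 49.7 RPKM in control. RAB1A (2p14) had 39.3 and 44.9 RPKM with TPA, against 37.7 and 44.1 RPKM in control. The groups overlap for both genes, with log2 fold changes of 0.02 (SE 0.14) for RAB1B and 0.04 (SE 0.15) for RAB1A. RAB6A (11q13.4), which acts in retrograde transport at the Golgi, also overlapped between groups, with 21.9 and 28.1 RPKM with TPA, against 21.7 and 25.3 RPKM in control. The 4 that rose were less abundant than these 3. RAB30 (11q14.1), a Golgi-located RAB, had 3.56 and 3.25 RPKM with TPA, against 0.812 and 0.815 RPKM in control, with log2 fold change 1.28 (SE 0.13, adjusted p = 7.64e-05). The antisense gene RAB30-AS1, higher than RAB30 in every library, averaged 8.85 RPKM with TPA and 6.93 RPKM in control and did not pass (log2 fold change 0.31). RAB39B (Xq28), a RAB gene mutated in X-linked intellectual disability, had 3.95 and 4.23 RPKM with TPA, against 1.28 and 1.10 RPKM in control (log2 fold change 1.22, SE 0.13, adjusted p = 1.13e-04). Both TPA libraries lay well above both controls for RAB39B. The same held for RAB30, which passed the filter on low values through the TPA libraries alone, so it had to differ. RAB43 (3q21.3) had 3.41 and 3.67 RPKM with TPA, against 1.65 and 1.44 RPKM in control (log2 fold change 0.83, adjusted p = 8.99e-04). It shares exons with the read-through gene ISY1-RAB43, which was higher, at 9.05 and 12.0 RPKM with TPA and 8.10 and 8.70 RPKM in control, and which did not pass. RAB2B (14q11.2) had 7.91 and 8.36 RPKM with TPA, against 5.25 and 6.005 RPKM in control (log2 fold change 0.47, adjusted p = 0.0174). It lost its call without TPA replicate 2 and without either control replicate. RAB18, a RAB of the endoplasmic reticulum and lipid droplets, had a log2 fold change of -0.33 (adjusted p = 0.0758), and RAB2A and RAB33B had changes of -0.14 and -0.07; none of the 3 passed.

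On the early endosome, where internalised receptors are first sorted, 3 of 8 tested were called higher and 5 did not pass. By limma's adjusted p 0 fell, and 0 were lower at an unadjusted p under 0.05. Over all genes tested 28.4% rose and 29.8% fell by adjusted p, and the unadjusted shares were not taken. RAB5 proteins direct fusion of early endosomes, and the 3 RAB5 genes did not change alike. RAB5B (12q13.2) had 55.1 and 64.0 RPKM with TPA, against 38.6 and 39.1 RPKM in control, with no overlap (log2 fold change 0.60, SE 0.14, adjusted p = 0.00660). RAB5C (17q21.2) had 45.0 and 51.4 RPKM with TPA, against 48.8 and 56.0 RPKM in control, values that overlap (log2 fold change -0.12, adjusted p = 0.509). RAB5A (3p24.3) averaged 16.8 ± 1.68 RPKM with TPA and 14.02 ± 1.31 RPKM in control (SD, n = 2 libraries each, as for every such value that follows) and did not pass (log2 fold change 0.25, adjusted p = 0.172). RAB4B (19q13.2), of fast recycling from early endosomes, had 9.90 and 11.2 RPKM with TPA, against 5.74 and 5.64 RPKM in control (log2 fold change 0.79, adjusted p = 0.00136). Its paralogue RAB4A was listed at 0 in every library. RAB4B lies within the read-through genes MIA-RAB4B, which rose by 0.79 on the log2 scale, and RAB4B-EGLN2, which did not pass at -0.23, so the reads of these 3 genes cannot be told apart with certainty. RAB20 (13q34), which acts in phagosome maturation, had 17.2 and 19.5 RPKM with TPA, against 13.2 and 10.54 RPKM in control (log2 fold change 0.59, adjusted p = 0.0110), a call lost without TPA replicate 2 and without control replicate 2. RAB14 (9q33.2), which acts between the Golgi and endosomes, had 28.8 and 30.1 RPKM with TPA, against 30.6 and 33.6 RPKM in control, and did not pass although its groups did not overlap. The gene GSN overlaps it in the GRCh38 annotation and rose. GSN had 31.9 and 32.3 RPKM with TPA, against 4.75 and 3.52 RPKM in control (log2 fold change 2.70). Whether reads of GSN add to RAB14 was not tested. RAB22A and RAB21, both of early endosomes, had log2 fold changes of 0.31 and -0.29 and did not pass. RAB21 was lower with no overlap between groups (limma, unadjusted p = 0.0540). It was called lower with quantile normalization and with the replicate block. RAB22A and RAB5A were called higher with median-of-ratios scaling, and RAB5A also with the replicate block.

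Of the recycling RAB genes 4 were tested, of which 1 fell and 3 did not pass. RAB15 (14q23.3), a RAB of early and recycling endosomes studied mostly in neurons, had the largest fall of the RAB genes tested on the log2(RPKM + 1) scale, while RAB26 had the lowest RPKM ratio (0.137 of control, against 0.274 for RAB15). It had 2.62 and 3.30 RPKM with TPA, against 10.2 and 11.3 RPKM in control, with log2 fold change -1.58 (SE 0.14, adjusted p = 4.93e-05), and the lowest control value was far above the highest TPA value. The gene CHURC1-FNTB, which overlaps it in the GRCh38 annotation, had a log2 fold change of -0.42 and did not pass. RAB11A (15q22.31) and RAB11B (19p13.2), the RABs of the recycling endosome, had estimates of opposite sign. RAB11A had 18.9 and 25.8 RPKM with TPA, against 28.5 and 32.9 RPKM in control (log2 fold change -0.45, SE 0.17, adjusted p = 0.0536). RAB11B had 43.6 and 46.5 RPKM with TPA, against 40.2 and 34.1 RPKM in control (log2 fold change 0.27, SE 0.14, adjusted p = 0.135). Neither passed, although groups of both did not overlap, and calls of both depended on the setting. RAB11A passed without TPA replicate 2, with the filter at 5 RPKM, with median-of-ratios scaling and with quantile normalization, and RAB11B passed with quantile normalization. Both RAB11 genes also passed with the replicate block. RAB35, which returns cargo from endosomes to the plasma membrane, averaged 20.8 ± 2.43 RPKM with TPA and 17.8 ± 0.311 RPKM in control and did not pass.

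Late endosomal and lysosomal RAB genes held the most abundant member of the family, which did not pass. RAB7A (3q21.3), which directs late endosomes to lysosomes, had 78.0 and 89.6 RPKM with TPA, against 84.5 and 105 RPKM in control (log2 fold change -0.17, SE 0.16, adjusted p = 0.388), with overlapping groups. This list had 5 genes tested, of which 2 rose, 1 fell and 2 missed the threshold. RAB38 (11q14.2), which acts in the making of lysosome-related organelles such as melanosomes, had 2.46 and 2.69 RPKM with TPA, against 0.966 and 1.14 RPKM in control (log2 fold change 0.80, adjusted p = 0.00114). Its close relative RAB32 was listed at 0 in every library. RAB24 (5q35.3), a RAB linked to autophagy, had 7.29 and 10.0 RPKM with TPA, against 5.41 and 6.15 RPKM in control (log2 fold change 0.50, adjusted p = 0.0332). RAB9B (Xq22.2) had 1.62 and 1.82 RPKM with TPA, against 2.72 and 2.76 RPKM in control (log2 fold change -0.46, adjusted p = 0.0153), while its paralogue RAB9A, of transport from late endosomes to the Golgi, averaged 14.5 ± 1.90 RPKM with TPA and 13.7 ± 2.64 RPKM in control and did not pass. The call of RAB24 was lost without TPA replicate 2 and without control replicate 1, and that of RAB9B without either control replicate.

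RAB genes of secretion and the plasma membrane included 1 that rose, RAB13, and 2 that fell. RAB13 had the highest log2(RPKM + 1) fold change of the genes tested, while the RPKM ratio of RAB30 was higher (4.19). The other 5 of the 8 tested missed the threshold. RAB13 (1q21.3), which moves junction proteins to the cell surface in epithelia, had 15.2 and 18.8 RPKM with TPA, against 4.14 and 4.66 RPKM in control, with log2 fold change 1.73 (SE 0.15, adjusted p = 3.64e-05). Its level was 3.86 times that of control with no overlap between groups. RAB8A (19p13.11), a relative of RAB13 in export to the surface and the cilium, moved the other way, with 27.02 and 29.4 RPKM with TPA, against 40.7 and 43.6 RPKM in control (log2 fold change -0.56, SE 0.13, adjusted p = 0.00724). That call was lost without control replicate 2. RAB8B (15q22.2) varied more between replicates than between groups, with 16.3 and 22.9 RPKM with TPA, against 15.6 and 22.4 RPKM in control. RAB26 (16p13.3), of secretory granules, had 0.229 and 0.275 RPKM with TPA, against 1.83 and 1.84 RPKM in control (log2 fold change -1.18, SE 0.12, adjusted p = 1.09e-04). It passed the filter on low values through the control libraries alone, so it had to differ. RAB10 (2p23.3), of surface delivery of the glucose transporter in fat cells, had 39.999 and 52.0 RPKM with TPA, against 46.9 and 55.6 RPKM in control, and overlapped. RAB27A, which docks secretory lysosomes and exosomes, was at 8.77 ± 0.334 RPKM with TPA and 9.31 ± 0.861 RPKM in control and did not pass (log2 fold change -0.08, adjusted p = 0.654), and neither did RAB3A or RAB12.

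Among the remaining RAB genes, RAB23 fell, and RAB40B and RAB40C rose. RAB23 (6p12.1-p11.2), a negative regulator of Hedgehog signalling in mouse, had 1.64 and 1.63 RPKM with TPA, against 3.21 and 4.31 RPKM in control (log2 fold change -0.84, SE 0.15, adjusted p = 0.00183). Its neighbours PRIM2, a DNA primase subunit gene, and BAG2 overlap it in the GRCh38 annotation and both fell, by 2.09 and 1.36 on the log2 scale. Use of strand is not given in the sources used here, and whether their reads add to RAB23 was not tested. RAB40B (17q25.3) and RAB40C (16p13.3) carry a SOCS box that joins them to a ubiquitin ligase. RAB40B had 7.86 and 8.35 RPKM with TPA, against 4.98 and 3.71 RPKM in control (log2 fold change 0.78, adjusted p = 0.00312). RAB40C had 10.3 and 11.1 RPKM with TPA, against 7.62 and 6.36 RPKM in control (log2 fold change 0.56, adjusted p = 0.0101), a call lost without control replicate 2. RAB34 (17q11.2), which acts at the Golgi and the cilium, had 47.3 and 50.5 RPKM with TPA, against 41.4 and 42.5 RPKM in control and did not pass (log2 fold change 0.22, adjusted p = 0.191). RAB28 and RAB29 overlapped between groups, at log2 fold changes of -0.08 and -0.03.

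**Figure D2:**
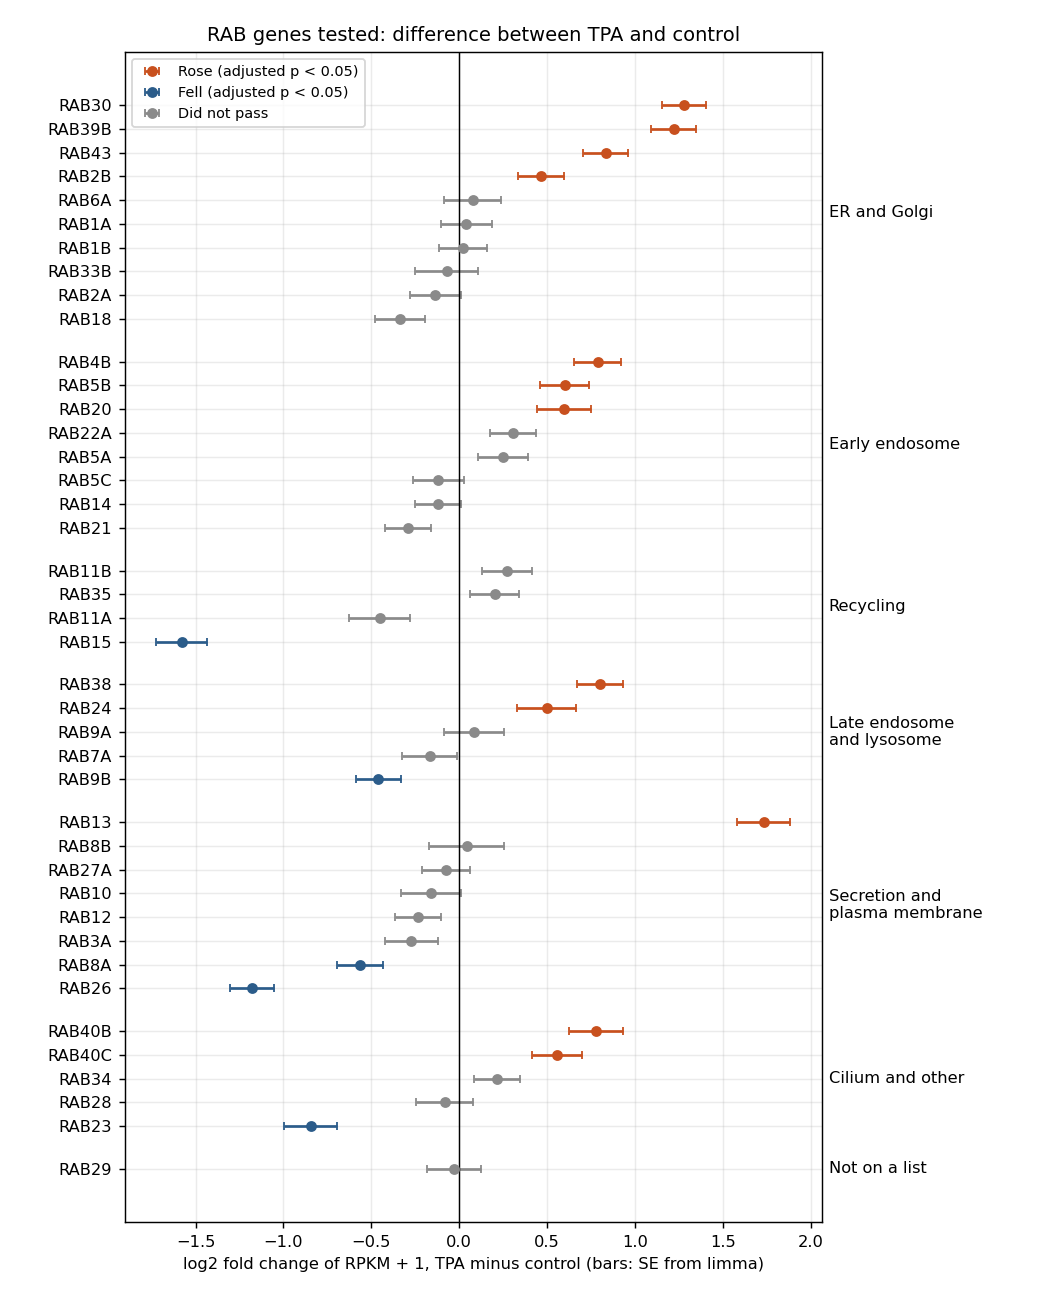
Log2 fold change of RPKM + 1 for the 41 RAB genes tested, TPA minus control, with bars of 1 SE from limma. RAB13 stands farthest right at 1.73 and RAB15 farthest left at -1.58, and 24 genes in grey did not pass.

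Few of the abundant RAB genes were called. A mean of at least 20 RPKM over the 4 libraries was reached by 12 RAB genes, of which 2 were called (16.7%), RAB5B and RAB8A, against 58.2% of the 3698 genes of that level. The 2 became 1 without control replicate 2 (against 43.3% of all genes of that level), 3 without TPA replicate 2 (55.4%), 3 with the filter at 5 RPKM (59.1%), 4 with median-of-ratios scaling (65.5%) and 5 with quantile normalization (64.7%). In the fit with all 4 libraries as deposited, the 10 others lay between -0.45 and 0.27 on the log2 scale, with adjusted p from 0.0536 to 0.896. Between 5 and 20 RPKM, 8 of 18 RAB genes were called (44.4%, against 57.2% of all genes of that level), and under 5 RPKM 7 of 11 (63.6%, against 59.5%). The median size of change regardless of sign was 0.16, 0.31 and 0.80 over the RAB genes of these 3 classes, from high to low level, and 0.50, 0.48 and 0.52 over all genes of the same classes. The class under 5 RPKM includes RAB26 and RAB30, which passed the filter through 1 group alone, so they had to differ. How many of all genes of that class did so was not taken. These shares are descriptions of the genes that passed the filter and were not tested. The 5 most abundant genes, RAB7A, RAB5C, RAB1B, RAB5B and RAB10, made up 36.8% and 37.3% of the summed RAB level with TPA, against 37.6% and 38.9% in control. The summed level itself was 719 and 833 RPKM with TPA and 713 and 784 RPKM in control, so the groups overlapped.

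**Figure D3:**
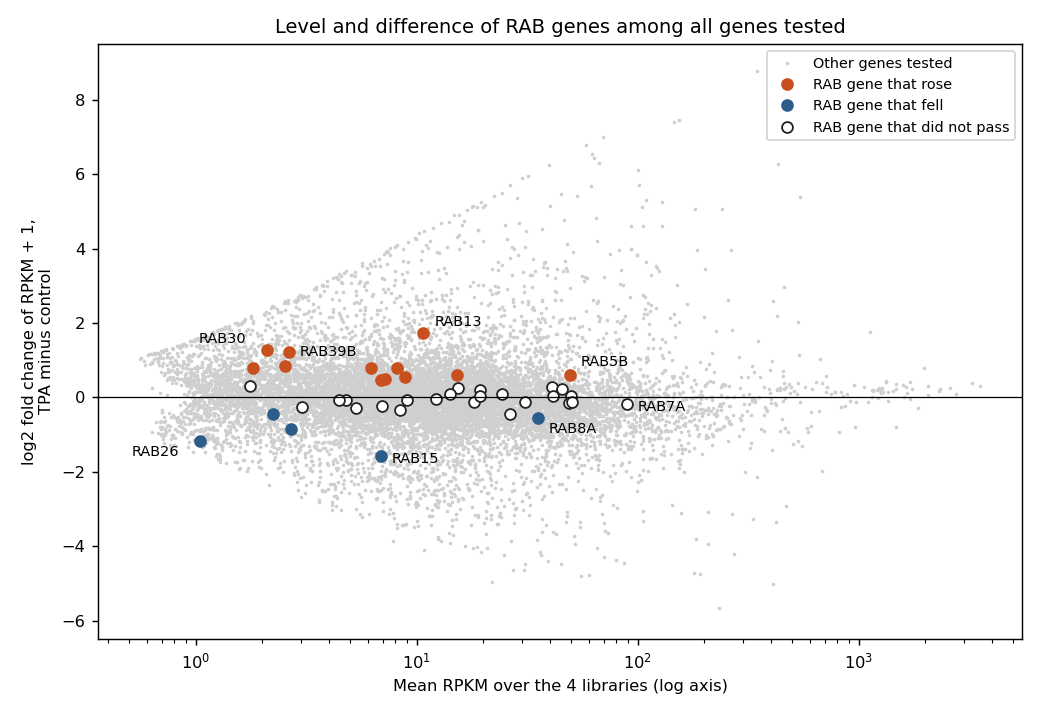
Mean RPKM over the 4 libraries (horizontal log axis) against the log2 fold change of RPKM + 1, TPA minus control, for RAB genes that rose, fell or did not pass and for the other genes tested (grey dots). The 12 RAB genes at or above 20 RPKM lie between -0.56 and 0.60, and the wider changes are at lower levels. Among the wider, RAB26 and RAB30 passed the filter on low values through 1 group alone, so they had to differ.

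The make-up of subfamilies shifted in part, as a share of the summed RPKM of the paralogues. RAB11A made up 30.3% and 35.7% of RAB11 with TPA, against 41.5% and 49.1% in control. RAB5B was 47.6% and 48.0% of RAB5 with TPA, against 38.4% and 35.5% in control, and RAB5C was 38.9% and 38.5% with TPA, against 48.6% and 50.9%. The most abundant RAB5 gene was therefore RAB5B in both TPA libraries and RAB5C in both control libraries. RAB2B was 33.2% and 30.8% of RAB2 with TPA, against 22.8% and 22.7% in control, and RAB8B was 37.6% and 43.8% of RAB8 with TPA, against 27.7% and 33.9%. RAB9B was 10.95% and 10.3% of RAB9 with TPA, against 18.7% and 15.1%. RAB1A stayed within 43.5% to 47.0% of RAB1 over all 4 libraries, and its share overlapped between groups. RAB11B and RAB11A had the widest gap in log2 fold change of the 9 paralogue pairs in which both genes were tested, 0.73, followed by RAB5B and RAB5C with 0.72. These gaps are given as a description and were not tested.

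**Figure D4:**
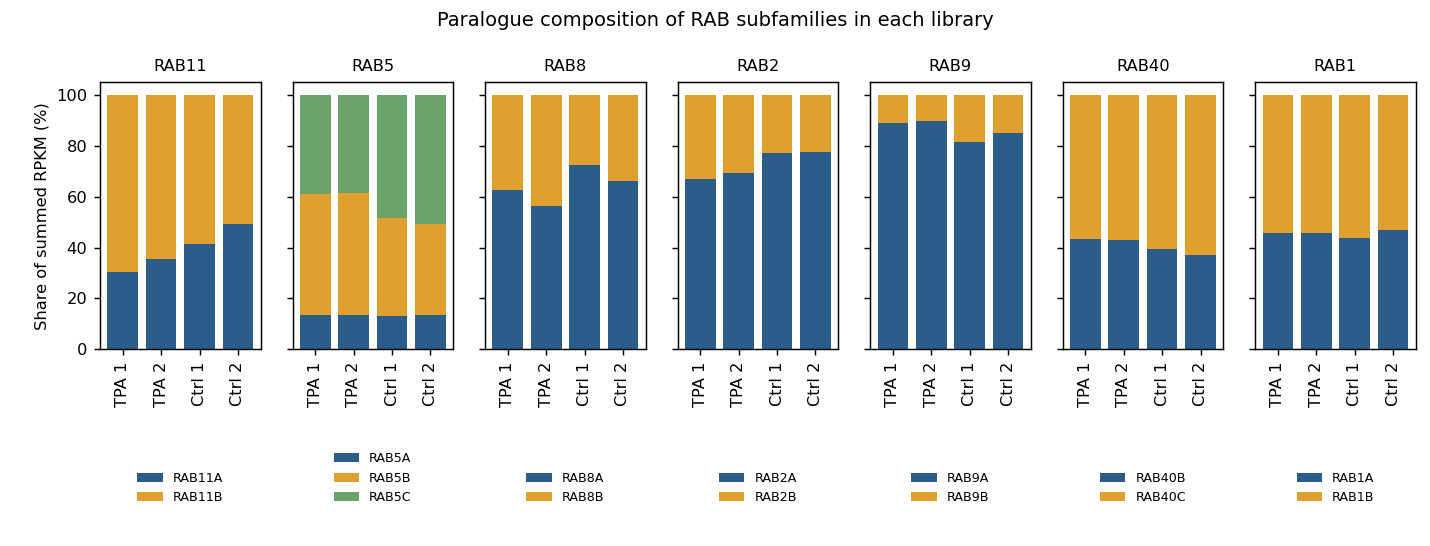
Share (%) of each paralogue in the summed RPKM of its subfamily, in the 2 TPA libraries (left bars of each panel) and the 2 control libraries (right bars). RAB5B holds 47.6% and 48.0% of RAB5 with TPA, against 38.4% and 35.5% in control, while RAB1 is nearly even in all 4.

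Of the 20 RAB genes below the filter, 6 were listed at 0 in every library: RAB3C, RAB4A, RAB19, RAB32, RAB39A and RAB40A. The other 14 had a value above 0 somewhere and reached at most 1.18 RPKM, in RAB17. Their mean was higher with TPA for 10 and lower for 3. For 7 of the 10 both TPA libraries lay above both controls (RAB3B, RAB3D, RAB27B, RAB31, RAB36, RAB37 and RAB41). Some of the 7 lay near 0: RAB3B had 0.012 and 0.009 RPKM with TPA, against 0 and 0.002 RPKM in control. RAB41 had 0.102 and 0.198 RPKM with TPA, against 0.040 and 0.021 RPKM in control. None of the 14 was tested. The same shares over all genes below the filter were not taken, so these counts show no lean particular to RAB genes. RAB31, a close relative of RAB22A of endosomes and the Golgi, had 0.813 and 0.731 RPKM with TPA, against 0.112 and 0.088 RPKM in control. RAB36 had 0.298 and 0.434 RPKM with TPA, against 0.075 and 0.064 RPKM in control, and RAB37, of secretory granules, 0.305 and 0.680 RPKM, against 0.169 and 0.166 RPKM. RAB27B had 0.314 and 0.420 RPKM with TPA, against 0.240 and 0.294 RPKM in control. RAB6B stayed under 0.5 RPKM in every library, and RAB6C, a near copy of RAB6A whose reads could be split with it, under 0.02 RPKM.

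Genes of RAB regulators and partners held wider changes at their extremes than the RAB genes did. More of them were tested (142, against 41 RAB genes), and a larger set can reach further. These 8 lists were drawn up from general knowledge of the pathway with earlier results of these data known, and 142 of their 166 genes in the table were tested. Of these 43 rose, 27 fell and 72 did not pass, 49.3% called in all (against 58.2% of all genes tested, with 28.4% that rose and 29.8% that fell). Their median log2 fold change was 0.14. Named from each list are the 2 lowest p-values among the calls of each direction; DENND6B, RIN2, HPS1, CHM, RABGGTA, RABGGTB, APPL1, the other RAB11FIP genes, VPS16, VPS8, VPS33A, EXOC5 and PPM1H were added after their values were seen.

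Exchange factors, which load RABs with GTP, went both ways: 12 of 33 rose, 7 fell and 14 missed the threshold. HPS4 (22q12.1), a subunit of the complex that activates RAB32 and RAB38, had 17.2 and 20.1 RPKM with TPA, against 127 and 112 RPKM in control, with log2 fold change -2.61 (SE 0.15, adjusted p = 3.65e-06). Its partner subunit gene HPS1 averaged 9.42 RPKM with TPA and 12.6 RPKM in control and did not pass. HPS4 fell while RAB38 rose and RAB32 was at 0. ANKRD27, an exchange factor for RAB21 that also binds RAB32 and RAB38, fell by 1.17 on the log2 scale to 12.1 ± 1.04 RPKM with TPA, against 28.4 ± 1.69 RPKM in control. DENND1C, of a subgroup that activates RAB35, averaged 10.8 ± 0.693 RPKM with TPA and 2.88 ± 0.0339 RPKM in control, and RIN3, an exchange factor for RAB5 proteins, 4.90 ± 0.184 RPKM with TPA and 0.907 ± 0.161 RPKM in control. Their log2 fold changes were 1.61 and 1.63. DENND6B also rose, with 44.5 and 45.1 RPKM with TPA, against 12.4 and 7.62 RPKM in control. RIN2, a relative of RIN3, had 1.84 and 1.46 RPKM with TPA, against 0.015 and 0.005 RPKM in control, and passed the filter through the TPA libraries alone. Of the 14 TRAPP subunits, which form exchange factors for RAB1, 3 rose, 1 fell and 10 did not pass. TRAPPC2 and TRAPPC6B rose by 0.93 and 0.88, and TRAPPC2L fell by 0.68 on the log2 scale.

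GTPase-activating proteins, which switch RABs off, held the highest fold change of these lists on the log2(RPKM + 1) scale. There were 31 tested, of which 7 rose, 10 fell and 14 missed the threshold; without control replicate 2 the counts were 3 and 6. TBC1D10C (11q13.2), an activating protein for RAB35 known in lymphocytes as carabin, had 41.5 and 45.4 RPKM with TPA, against 3.22 and 2.996 RPKM in control (log2 fold change 3.43, SE 0.13, adjusted p = 6.67e-07). EVI5 rose to 1.72 ± 0.149 RPKM with TPA, against 0.407 ± 0.0643 RPKM in control, and passed the filter through the TPA libraries alone. TBC1D4, an activating protein for RAB10 in insulin-responsive cells, had 7.96 and 9.91 RPKM with TPA, against 29.9 and 33.001 RPKM in control (log2 fold change -1.71). TBC1D24 fell by 0.96 on the log2 scale. RAB35 and RAB10, on which TBC1D10C and TBC1D4 act, did not pass themselves.

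Genes of RAB lipid attachment and membrane extraction numbered 8, of which 2 rose, 1 fell and 5 did not pass. GDI2 (10p15.1), a GDP dissociation inhibitor that draws RABs off membranes, was more abundant than any RAB gene, with 545 and 494 RPKM with TPA, against 181 and 184 RPKM in control (log2 fold change 1.504, SE 0.13, adjusted p = 4.30e-05). RABAC1, whose product releases RABs from GDI, rose to 49.8 ± 3.49 RPKM with TPA, against 29.7 ± 7.01 RPKM in control, but lost its call without control replicate 2, which left 1 gene that rose. CHML, an escort protein that presents new RABs for prenylation, fell to 7.88 ± 0.146 RPKM with TPA, against 15.3 ± 0.373 RPKM in control, while its paralogue CHM and the transferase subunits RABGGTA and RABGGTB did not pass.

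RAB effectors, which act downstream of active RABs, were split, with 10 of 35 tested that rose, 7 that fell and 18 that did not pass. OPTN (10p13), which binds RAB8 and serves as an autophagy receptor, had 5.49 and 6.40 RPKM with TPA, against 0.469 and 0.423 RPKM in control (log2 fold change 2.26, SE 0.13, adjusted p = 4.73e-06), passing the filter through the TPA libraries alone. APPL2, an effector of early endosomal RABs, averaged 17.3 ± 2.01 RPKM with TPA and 6.63 ± 0.330 RPKM in control, with a log2 fold change of 1.26, whereas its paralogue APPL1 fell by 0.43. MYRIP, which links RAB27A to myosin, averaged 0.821 ± 0.222 RPKM with TPA and 4.01 ± 0.346 RPKM in control, and passed the filter through the control libraries alone. RAB11FIP5, an effector of RAB11, averaged 1.124 ± 0.228 RPKM with TPA and 4.21 ± 0.0792 RPKM in control. The RAB11 effectors differed in direction: RAB11FIP5 and RAB11FIP2 fell by 1.30 and 1.04, while RAB11FIP1 and RAB11FIP4 had log2 fold changes of 1.08 and 0.88 and RAB11FIP3 did not pass at -0.06.

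Tethers hold a vesicle at its target. The HOPS and CORVET list and the exocyst list had no gene called lower, while 29.8% of all genes tested fell. Genes on the other lists are not counted here. Of 10 genes of the lysosomal and endosomal tethers HOPS and CORVET and of the related VPS33B and VIPAS39 pair, 5 rose, 0 fell and 5 did not pass, with VPS39 at 22.6 and 23.4 RPKM with TPA, against 14.7 and 13.3 RPKM in control. VIPAS39 averaged 13.3 ± 1.34 RPKM with TPA and 7.68 ± 0.0976 RPKM in control. VPS16, VPS8 and VPS33A also rose, by 0.65, 0.61 and 0.47. By limma at an unadjusted p under 0.05, 0 genes of either tether list were lower. Of 8 exocyst genes tested, which tether vesicles at the plasma membrane, 3 rose, 0 fell and 5 did not pass, but only 1 rose without TPA replicate 2, 1 without control replicate 1 and 0 without control replicate 2. EXOC7 averaged 34.8 ± 0.714 RPKM with TPA and 22.7 ± 1.65 RPKM in control, and EXOC1 averaged 12.5 ± 0.698 RPKM with TPA and 9.10 ± 0.350 RPKM in control. EXOC5 had log2 fold change 0.44.

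The list of kinases that phosphorylate RABs and of their phosphatase held 3 genes. LRRK2 (12q12), which phosphorylates RAB8A and RAB10, had 2.35 and 2.83 RPKM with TPA, against 0.009 and 0.012 RPKM in control (log2 fold change 1.83, SE 0.13, adjusted p = 1.42e-05), and passed the filter through the TPA libraries alone, so that it had to differ. LRRK1, which phosphorylates RAB7A, averaged 0.940 ± 0.113 RPKM with TPA and 2.70 ± 0.177 RPKM in control (log2 fold change -0.93, SE 0.13, adjusted p = 4.96e-04). PPM1H, a phosphatase that reverses LRRK2 phosphorylation, had a log2 fold change of -0.26 and did not pass, except without TPA replicate 2, when 2 of these 3 genes fell.

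**Figure D5:**
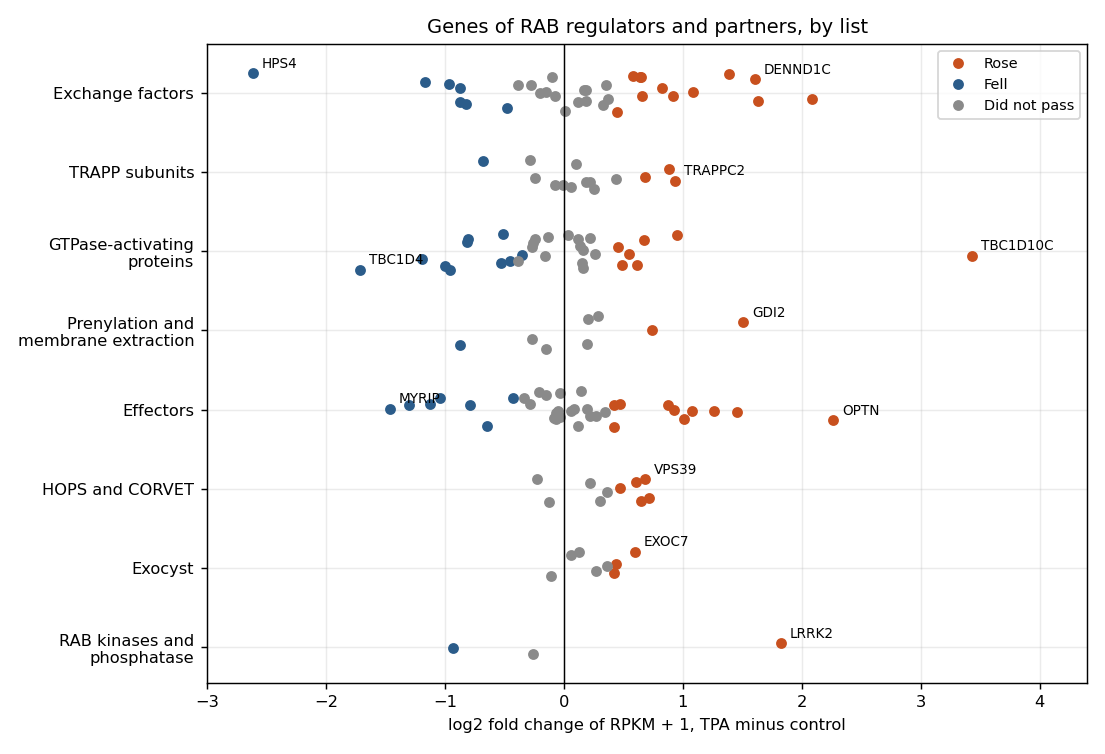
Log2 fold change of RPKM + 1, TPA minus control, for the 142 genes of RAB regulators and partners tested, by list (points are spread up and down within a list for legibility). TBC1D10C stands farthest right at 3.43 and HPS4 farthest left at -2.61. No gene of the HOPS and CORVET list or of the exocyst list is among those that fell.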

How the data were processed

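Human 697 cells were profiled by RNA-seq in 2 TPA and 2 control libraries, grouped by their titles. The authors deposited 1 table of RPKM values, per the file headers. The submitters' processing notes name CASAVA 1.8, Bowtie 1.12, TopHat, SAMtools, HOMER and hg19, with no role or order. Strand use and the treatment of reads that map to several places are not given in the sources used here.

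Count models were not used, since RPKM are not counts. The 12159 genes (of 27142) at 1 RPKM or more in 2 or more libraries entered a limma 3.58.1 fit in R 4.3.3 on log2(RPKM + 1), TPA minus control, with a mean-variance trend (residual df 2, prior df 5.88). All tests were two-sided, with Benjamini-Hochberg adjustment over every gene in the fit. This scale understates fold changes of low genes. Relative depth is the most frequent ratio, to control replicate 1, of values between 0.03 and 0.15 RPKM. Overlapping genes were read from the GRCh38 RefSeq annotation, and no coordinate was converted. Protein sequences were not used here. Figures used matplotlib 3.10.9.

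The RAB genes, the lists and the rule for named genes were chosen with earlier results of these data known. By that rule, values in every library are given for RAB genes called at 2-fold or more, the 5 most abundant, and those at 20 RPKM or more that did not pass; other called RAB genes were added. Alternatives were a pseudocount of 0.1, no filter or one at 5 RPKM, quantile normalization, scaling by median of ratios, no trend, a threshold of 0.01, a replicate block and each library left out.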

Additional observations from a re-analysis of the deposited data

How the results depend on the processing

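Of the 17 RAB calls, 11 held under every alternative in which the gene was tested (RAB4B, RAB5B, RAB13, RAB15, RAB23, RAB26, RAB30, RAB38, RAB39B, RAB40B and RAB43), 6 were lost under at least 1, and 0 changed direction. Of the 11, RAB23, RAB26, RAB30, RAB38, RAB39B and RAB43 were under 5 RPKM in every library. The filter at 5 RPKM therefore left them out and could not remove their calls. RAB26 and RAB30 passed the filter at 1 RPKM through 1 group alone, so they had to differ. A call was gained under at least 1 by 7 RAB genes (RAB5A, RAB11A, RAB11B, RAB18, RAB21, RAB22A and RAB34). The count of RAB genes that fell, 5, was 3 with the filter at 5 RPKM, 8 with quantile normalization and 8 with the replicate block, and 3 to 7 with 1 library left out. Over all genes, 3621 of the 12159 tested fell in the fit described above, and 3054 of 9149 with the filter at 5 RPKM. Of the same 12159, 3806 fell with quantile normalization and 4288 with the replicate block. The RAB median log2 fold change, 0.04, lay between -0.10 and 0.15 with 1 library left out. GTPase-activating proteins that fell, 10, were 6 without a filter and 6 at a threshold of 0.01. Effectors that fell, 7, were 4 without a filter. The kinase list had 0 that rose and 0 that fell with the filter at 5 RPKM. TRAPP genes that rose, 3, were 5 with median-of-ratios scaling, 5 with quantile normalization and 5 with the replicate block. Exocyst genes that rose, 3, were 5 under each of these and 1 at a threshold of 0.01. With 1 library left out, GTPase-activating proteins that rose numbered 3 to 6 and those that fell 6 to 10, kinases that fell 1 to 2, prenylation genes that rose 1 to 2 and exocyst genes that rose 0 to 3. The cause was not tested; the filter at 5 RPKM tests fewer genes and leaving out a library uses fewer samples, and the lone sample left in a group is then assumed to vary like the other group.

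The replicate block gave 14 RAB genes that rose and 8 that fell. Over all 12159 genes tested it gave 3946 that rose and 4288 that fell, 67.7% called in all. Of the 12 RAB genes at 20 RPKM or more 4 were called, against 72.4% of all genes of that level. With this block 2 prenylation genes and 3 TRAPP genes fell. Deviations of same-numbered libraries correlated at r = 0.361 across genes, but no label says what the number marks, and 2 pairs do not show a pairing. With 2 libraries a group and the absolute depth unknown, counting error could not be given.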

Other observations

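RAB-like genes that the naming rule leaves out moved too. RASEF, also known as RAB45, a large RAB with EF hands, had 0.481 and 0.537 RPKM with TPA, against 4.75 and 5.83 RPKM in control. Its log2 fold change was -2.05 (limma, adjusted p = 9.96e-06), larger in size than that of any RAB gene tested. RASEF passed the filter on low values through the control libraries alone, so it had to differ. RABL6 had 26.9 and 30.2 RPKM with TPA, against 66.7 and 62.1 RPKM in control (log2 fold change -1.15, adjusted p = 2.04e-04), and RABL3 fell by 0.63. RABL2B, linked to transport into cilia, had a log2 fold change of 0.40 (adjusted p = 0.0346), and its near copy RABL2A one of 0.32 that did not pass (adjusted p = 0.0665). Reads of RABL2A and RABL2B could be split between the copies.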
